A study of Mus musculus with 8 samples.

Results

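Lung maturation was followed here by setting the lung of mouse embryos at embryonic day E11.5 beside the lungs of control embryos at E18.5, shortly before birth. These are 4 of the 8 arrays of a series on MIA, a secreted protein misexpressed in lung. The E11.5 group is 1 array of FVB/N lung with no transgene named. The E18.5 group is 3 arrays of FVB/N lungs described as SP-C/MIA controls and as single transgenic littermates of bitransgenic embryos. SP-C is surfactant protein C, a product of the distal lung epithelium. The labels do not say which transgene a control carried, whether RNA of several E11.5 embryos was pooled, or whether the 3 controls were separate embryos. The control spread below may therefore be technical.

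The ages were measured on different Affymetrix array types, an older one at E11.5 and a newer one at E18.5. A gene entered when a probe set with a single gene symbol stood for it on both types, which held for 8108 genes of 8251 on the older and 18193 on the newer array. The probe set of highest mean signal stood for each gene, and the deposited signals of each array were turned into percentile ranks over the 8108 genes. A rank of 0 is the lowest signal and 100 the highest. A rank gives the place of a probe set on its array. It does not compare RNA amounts between genes, and near 100 it leaves little room for a difference. Age and array type cannot be told apart in any shift below, and no test of age was made. With 1 array at E11.5 against 3, an exact permutation gives no p below 0.25.

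At E11.5 the mouse lung is a pair of small buds, an epithelial tube branching into mesenchyme, in which most cells divide. By E18.5 the distal tubes have become saccules lined by type II cells, which make surfactant, and flat type I cells, which form the gas exchange surface beside capillaries. Airways then hold club cells and ciliated cells, and red cells no longer carry embryonic haemoglobin.

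A gene was counted as higher at E18.5 when every control ranked at least 25 points above the E11.5 lung and the mean control rank was at least 50. It was counted as lower when every control ranked at least 25 points below and the E11.5 rank was at least 50. In every counted gene the controls therefore lie apart from the E11.5 lung by definition, and that separation is no further support. By this rule 845 of 8108 genes (10.4%) were higher and 726 (8.95%) were lower, 1571 (19.4%) in either direction. These shares are the background against which each group of genes is read. With ranks taken over all genes of each array type the split was 1588 higher and 235 lower, and the median shift of the shared genes moved from -1.56 to 7.69 points. For arrays of one type the same 25 points, with the higher rank at least 50, were rarely reached. The E11.5 lung and E11.5 trachea arrays were that far apart at 51 genes (0.629%). Controls 1 and 2 were at 5 genes (0.0617%), controls 1 and 3 at 12 (0.148%) and controls 2 and 3 at 9 (0.111%). The median SD of a gene's rank over the controls was 2.67 points.

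Probe set choice gave gaps of the same order as the shifts. For 2065 shared genes with more than 1 probe set on the older array, the brightest pair was compared. In 34.5% it lay at least 25 points apart with the higher rank at least 50. On the newer array this held for 27.2% of 4839 genes. Among 24 reference genes of general cell function, 3 were higher and 2 lower (20.8%), close to the background. Actb, which encodes beta-actin, went from rank 44.2 to 99.8 with every pair of its probe sets higher. Below, genes whose probe set pairs gave shifts of both signs are named as such, with the range for those described in detail. The brightest probe set stood for each gene. Dimmer ones on the newer array therefore pull the range down, and dimmer ones on the older array pull it up.

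**Figure D1:**
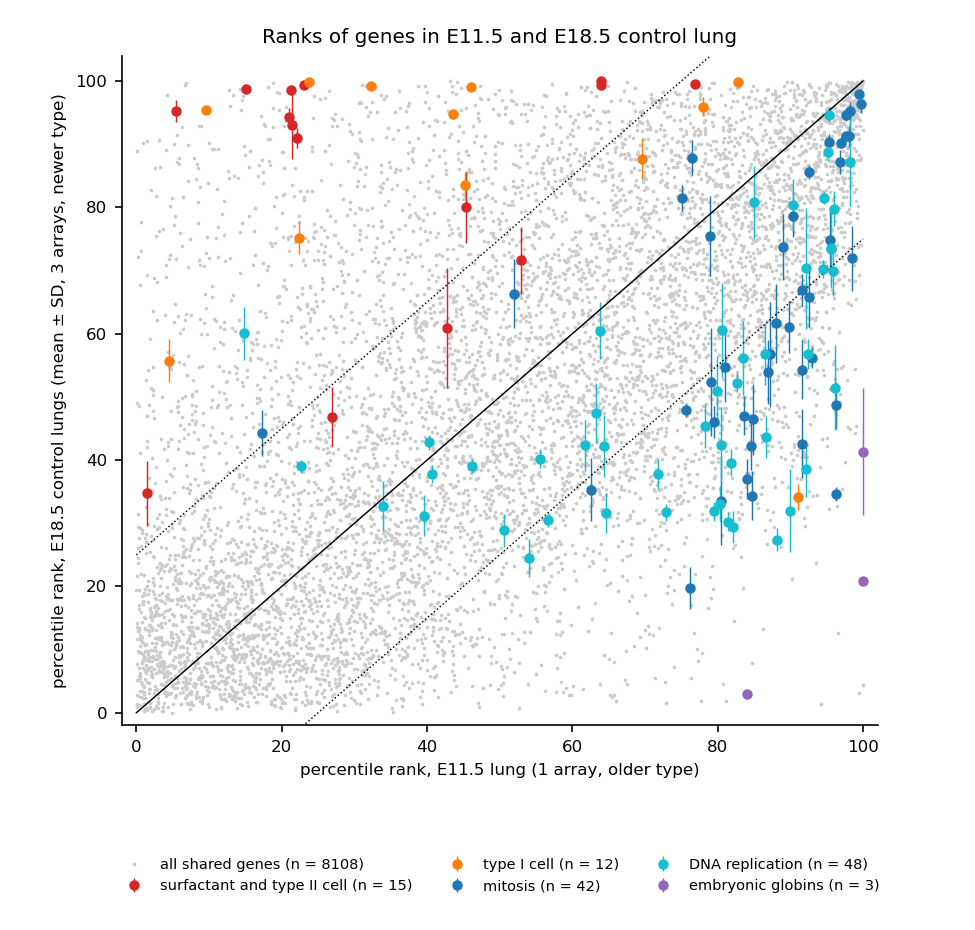
Percentile rank of each shared gene in the E11.5 lung array (horizontal) and in the E18.5 controls (vertical, mean of 3 arrays, bars show SD for the coloured genes). The solid line marks equal ranks and the dotted lines a gap of 25 points. Type I and type II cell genes gather at the upper left, mitosis, DNA replication and embryonic globin genes at the right below the line.

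The 3 surfactant protein genes that could be compared all ranked higher at E18.5. Sftpd encodes the collectin SP-D and lies on chromosome 14 (41172212 to 41185198, GRCm38). It ranked 21.0 in the E11.5 lung and 93.27, 93.78 and 95.96 in controls 1, 2 and 3. Sftpb, whose product spreads surfactant lipid at the air surface, ranked 21.4 at E11.5 and 88.5, 91.6 and 98.9 in the controls. Both genes have a single probe set on either array. The E11.5 trachea ranked 4.34 for Sftpd and 19.3 for Sftpb, on the same array type as the E11.5 lung.

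Sftpc (chromosome 14, 70520941 to 70524081), the marker of distal lung epithelium, was already well above the lowest ranks at E11.5. It ranked 64.0 in the E11.5 lung against 27.3 in the E11.5 trachea, and 99.93, 99.99 and 99.97 in the controls. The controls all lay at the top of the array. This shift of 36.01 points rests on the brighter of a pair of probe sets on the newer array. The dimmer one had a mean control rank of 25.2, which turns the shift to -38.75.

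Of 12 type II cell genes 7 (58.3%) were higher and 0 lower, and all 12 had a positive shift, with a median of 35.05 points. Lyz2, a lysozyme of type II cells and macrophages (chromosome 10, 117277541 to 117282272), ranked 21.2 at E11.5 and 97.8, 98.7 and 99.2 in the controls. Slc34a2, the phosphate transporter of the type II cell surface, ranked 15.1 against 98.6, 98.7 and 98.8. Every control lay far above the E11.5 lung in these genes. Napsa and Ctsh encode proteases that process surfactant proteins B and C. Their mean control ranks were 95.2 ± 1.72 and 99.4 ± 0.21 (SD, n = 3), against 5.51 and 23.1 at E11.5. Lpcat1, which makes the main surfactant phospholipid, shifted by 35.42 points, with a range of -48.6 to 35.4 over its probe set pairs. Muc1 and the complement gene Hc were also higher. Cebpa, Cd74, Fabp5, Rbpjl and S100g shifted by 18.11 to 33.26 points without being counted, and Rbpjl had a pair range of -12.02 to 19.97. Because whole lungs were measured, more cells of a type and more RNA per cell cannot be told apart here or below.

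Of 12 type I cell genes 8 (66.7%) were higher and 1 lower, with a median shift of 51.17 points. Ager, the receptor for advanced glycation end products and a hallmark of type I cells (chromosome 17, 34597460 to 34600937), ranked 23.8 at E11.5 and 99.86, 99.92 and 99.78 in the controls. Hopx, a homeodomain regulator, ranked 46.0 against 98.77, 98.97 and 99.39. Pdpn, a mucin-like membrane protein, ranked 43.6 against 93.9, 95.0 and 95.2. In each the controls lay together near the top of the array and apart from the E11.5 lung. Emp2 and Col4a4, a basement membrane collagen chain, shifted by 67.01 and 85.88 points, and Col4a3, the partner chain, by 51.25. Vegfa and Sema3e were counted as higher, but the ranges over their probe set pairs, -5.46 to 38.3 and -2.85 to 52.9, cross 0. Igfbp2, an insulin-like growth factor binding protein, went the other way, from 91.1 to 35.76, 31.88 and 34.96. When genes with 1 probe set on each array type were ranked among themselves, 1 of 3 type I genes was higher and 1 lower, with a median of 17.35 points.

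Of 14 club and secretory cell genes 8 (57.1%) were higher and 1 lower, with a median shift of 38.86 points. Scgb1a1, the secretoglobin that defines club cells, ranked 31.0 in the E11.5 lung and 99.1, 99.4 and 99.5 in the controls. Cbr2, a carbonyl reductase, ranked 19.6 against 97.31, 98.17 and 99.02, and the cytochrome gene Cyp2f2 ranked 26.97 against 91.13, 91.92 and 95.53. The controls lay together and far above the E11.5 lung in these 3 genes. Pigr, the receptor that carries polymeric antibodies across epithelium, was lower (65.3 against a mean of 12.6 ± 1.51, SD, n = 3). Ciliated cell genes did not follow the club cell genes, with 1 of 12 higher and 2 lower. Foxj1, the master regulator of motile cilia, ranked 42.8 at E11.5 and 37.1, 40.5 and 43.5 in the controls, which overlap it. Tppp3 was the higher member, and Ift88 and Rsph1, of cilium transport and the radial spoke, were the lower ones.

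**Figure D2:**
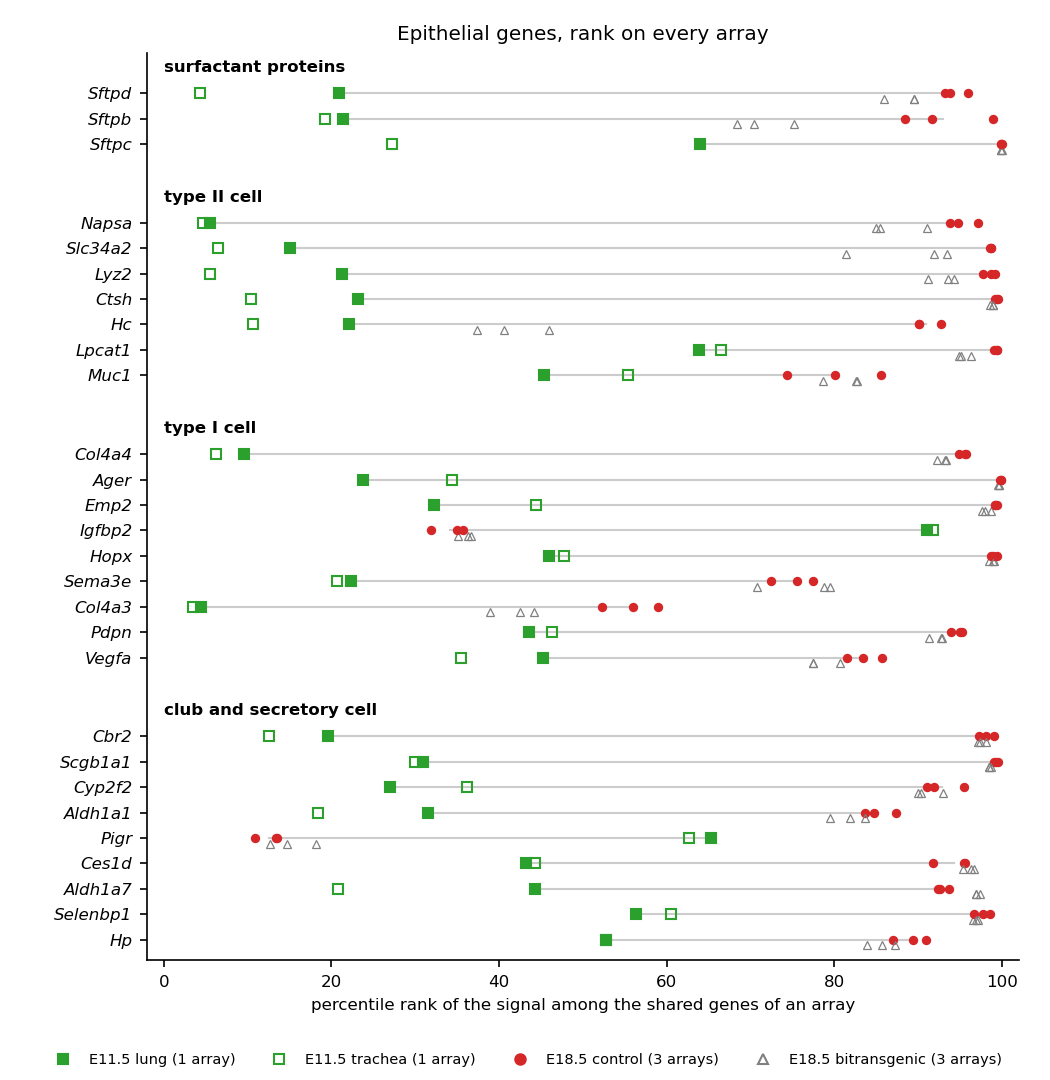
Rank on every array (horizontal, 0 to 100) of the counted surfactant, type II, type I and club cell genes, by list. Filled squares are the E11.5 lung, open squares the E11.5 trachea, red dots the 3 E18.5 controls and open triangles the 3 bitransgenic E18.5 lungs; a grey line joins the E11.5 lung to the control mean. The controls lie to the right of the E11.5 lung in all genes drawn but Igfbp2 and Pigr.

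Genes that mark epithelium in general had a median shift of 23.52 points. Of 27 epithelial shell and junction genes 9 (33.3%) were higher and 2 lower. Cdh1, which encodes E-cadherin, ranked 68.0 in the E11.5 lung and 86.8, 92.4 and 83.7 in the controls, above it in every control but by less than 25 points. Epcam ranked 28.9 against 76.8, 79.3 and 63.1. Lgals3, a galectin of epithelium and macrophages, had the largest shift of the list, from 0.94 to a mean of 90.2 ± 1.38 (SD, n = 3). Cldn6, a claudin typical of embryonic epithelium, was lower, at 86.5 against 32.9, 25.4 and 28.4, and so was Cldn4. Sftpc and Foxa2, which mark lung epithelium, ranked 64.0 and 79.9 in the E11.5 lung. No detection calls were used, so these ranks do not show which signals stood above background.

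The 18 lung epithelial transcription factors split, with 5 higher, 3 lower and a median shift of -0.86, which turned positive with ranks over all genes. Foxa2 and Foxa1, forkhead factors of the whole lung endoderm, shifted by -14.6 and 12.3 points and were not counted, and Id2, of the branching tips, by -1.33. Elf5, Klf5, Klf2, Klf4 and Nfia were higher. For Klf5 and Nfia the probe set pairs differed in sign (-0.38 to 70.7 and -30.3 to 68.6). Sox11, Etv4 and Mycn, factors of embryonic progenitors, were lower, at 96.4, 60.8 and 81.2 in the E11.5 lung and means of 54.4, 16.7 and 48.2 in the controls. Mycn too had pairs of both signs, from -62.8 to 43.0.

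Late gestation brings a rise of circulating glucocorticoid, which speeds lung maturation, and a switch from secreting to absorbing lung liquid. Of 21 glucocorticoid response genes 9 (42.9%) were higher and 1 lower. Hsd11b1, the enzyme that regenerates active glucocorticoid, ranked 12.9 in the E11.5 lung and 96.3, 96.6 and 95.4 in the controls. Hsd11b2, which inactivates it, was the lower gene, at 53.2 against 26.6, 24.0 and 23.2. The controls thus lay on opposite sides of the E11.5 lung for these enzymes, although the pair range of Hsd11b2 runs from -28.6 to 6.72. The receptor gene Nr3c1 ranked 17.3 against 88.8, 87.8 and 86.0, with a pair range of -9.62 to 70.2. Only 3 of the 9 higher genes, Hsd11b1, Sult1a1 and Per1, kept 1 sign over every pair of probe sets. Of 14 ion and water transport genes 5 were higher and 0 lower. Aqp1, the water channel of lung capillaries, ranked 27.3 against 92.6, 95.2 and 96.5. Among 17 fatty acid and phospholipid synthesis genes 3 were higher and 1 lower. Scd1, which makes monounsaturated fatty acids, ranked 49.97 against 98.75, 98.4 and 98.45.

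Genes of cell division lay on the other side. Of 42 mitosis genes 15 (35.7%) were lower and 0 higher, with 38 negative shifts and a median of -26.48 points. Of 48 DNA replication genes 19 (39.6%) were lower and 1 higher, with a median of -23.24. With ranks over all genes of each array type, 6 mitosis and 7 DNA replication genes were lower, and the medians were -10.93 and -10.94. Of 6 mitosis genes with 1 probe set on each array type 0 were lower, with a median of -15.28.

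Many genes of mitosis are switched on late in the cell cycle through a CCAAT box and a cell cycle homology region near the start of transcription, and many genes of DNA synthesis through E2F sites. The promoter windows from RefSeq (GRCm38.p6) hold 250 bases before and 50 after a gene's start. The CCAAT box was searched as the letters CCAAT and the cell cycle homology region as the letters TTTGAA. An E2F site was searched as either TTTCGCGC or, with another middle, as TTTGGCGC. Both strands were read, in the first window listed for each of 27025 genes. A CCAAT match stood in 37.9% of all windows, TTTGAA in 18.1%, both in 7.12% and an E2F match in 0.833%. Over the 6497 shared genes with a window these shares were 38.1%, 12.9%, 5.43% and 1.55%. Windows were at hand for 33 of the 42 mitosis genes, whatever their shift. Of these 26 (78.8%) held CCAAT, 22 (66.7%) held TTTGAA and 20 (60.6%) held both, and 1 held an E2F match. Of 43 DNA replication windows 26 (60.5%) held CCAAT, 6 TTTGAA and 8 (18.6%) an E2F match. Among the members counted as lower, both CCAAT and TTTGAA stood in 5 of 10 mitosis windows. Of the 19 DNA replication windows of lower members 8 (42.1%) held CCAAT, near the share of shared genes. TTTGAA stood in 1 of these 19 and an E2F match in 2. A match describes letters and does not show that a factor binds. The 180 bases before the start are printed for 4 of the lower genes, chosen because together they show the arrangements named, with matches on either strand in capitals. They lie at chr19:37376202-37376381 (plus strand) for Kif11, chr9:83834509-83834688 (plus) for Ttk, chr1:20820313-20820492 (minus) for Mcm3 and chrX:93632156-93632335 (minus) for Pola1.
Kif11: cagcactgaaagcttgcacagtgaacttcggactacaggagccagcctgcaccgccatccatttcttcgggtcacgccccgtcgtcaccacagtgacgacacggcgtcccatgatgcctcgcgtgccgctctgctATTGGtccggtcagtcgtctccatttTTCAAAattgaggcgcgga
Ttk: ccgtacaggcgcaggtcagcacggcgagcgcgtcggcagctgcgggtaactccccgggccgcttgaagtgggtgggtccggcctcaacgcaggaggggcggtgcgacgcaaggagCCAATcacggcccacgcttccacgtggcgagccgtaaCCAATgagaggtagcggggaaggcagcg
Mcm3: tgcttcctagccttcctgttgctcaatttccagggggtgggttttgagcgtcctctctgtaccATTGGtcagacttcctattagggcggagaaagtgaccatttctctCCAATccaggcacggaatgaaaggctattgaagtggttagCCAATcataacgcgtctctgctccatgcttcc
Pola1: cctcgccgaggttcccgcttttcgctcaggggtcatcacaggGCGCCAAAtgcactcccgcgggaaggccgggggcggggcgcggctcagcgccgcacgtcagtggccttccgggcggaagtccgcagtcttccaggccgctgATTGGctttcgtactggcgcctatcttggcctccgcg
The Kif11 stretch holds a CCAAT match in reverse, 45 bases before the start, and a TTTGAA match in reverse 19 bases before it. Ttk has CCAAT 65 and 28 bases before the start, and Mcm3 has 3 matches, at 117, 72 and 32 bases. Pola1 pairs an E2F match 138 bases before the start with a CCAAT match at 37. For Ttk and Pola1 the start of the window used lies inside the gene's RefSeq bounds, which begin at 83834651 for Ttk and end at 93632387 for Pola1. Their distances hold for that start only.

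Kif11, the motor that separates the spindle poles, ranked 84.8 in the E11.5 lung and 35.05, 30.26 and 37.82 in the controls. Ttk, a checkpoint kinase, ranked 80.4 against 32.0, 27.4 and 41.3. Plk1, the kinase that drives mitotic entry (chromosome 7, 122159435 to 122169884), ranked 91.6 against 40.6, 38.5 and 48.8. In each of these genes every pair of probe sets gave the same sign. For Kif11 and Ttk, with 1 probe set on the older array, taking the brightest newer one all but fixed that sign. Plk1 has 3 probe sets on the older array, with a range of -49.03 to -47.56. Kif20a, a kinesin of cytokinesis, had the largest shift of the list at -61.68, followed by the phosphatase Cdc25c at -56.48. Aurka, Aurkb, Birc5, Bub1, Foxm1, Kif2c, Kif23, Lmnb1, Mad2l1 and Nek2 were also lower, and of these Bub1 alone had pairs of both signs (-64.6 to 19.8). Only Bub1 and Foxm1 among them have several probe sets on the older array, so the sign was all but fixed for the rest. The E11.5 trachea lay close to the E11.5 lung here, at 82.0 for Kif11 and 89.4 for Plk1.

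Mki67, the common marker of cycling cells (chromosome 7, 135689784 to 135716450), was not among the genes counted. It ranked 92.5 in the E11.5 lung and 85.3, 84.8 and 86.9 in the controls. All 3 controls lay below the E11.5 lung, with a mean shift of -6.87 points, and a dimmer Mki67 probe set on the older array, at rank 31.3, would turn the direction. Other members that kept a high rank at E18.5 were Cdc20, Cks1b, Stmn1, Tubb5 and H2az1, with mean control ranks between 91.2 and 97.9. Stmn1 had pairs of both signs. Top2a, the topoisomerase of dividing cells, had a mean of 78.7 ± 3.38 (SD, n = 3) against 90.3.

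Among the DNA replication genes, Cdc6, which loads the replicative helicase (chromosome 11, 98907709 to 98923942), ranked 88.1 in the E11.5 lung and 28.7, 25.3 and 28.1 in the controls. Mcm3, a subunit of that helicase, ranked 96.2 against 48.3, 46.9 and 59.2. Pola1, the catalytic subunit of DNA polymerase alpha, ranked 81.8 against 42.1, 38.4 and 38.3. Control 3 was the highest control for Mcm3. Uhrf1, which passes DNA methylation on to the daughter strand, shifted by -53.62 points and Ccne1, the cyclin of S phase entry, by -47.62. Tk1, Pola2, Rfc5, Rfc1 and Pold1 were lower with the brightest probe sets, but had pairs of both signs. Pcna, the sliding clamp, kept a mean rank of 87.1 ± 6.87 (SD, n = 3) against 98.2. Mcm6 was the higher member, at 14.8 against 64.8, 58.2 and 57.1, with a pair range of -8.28 to 45.3.

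**Figure D3:**
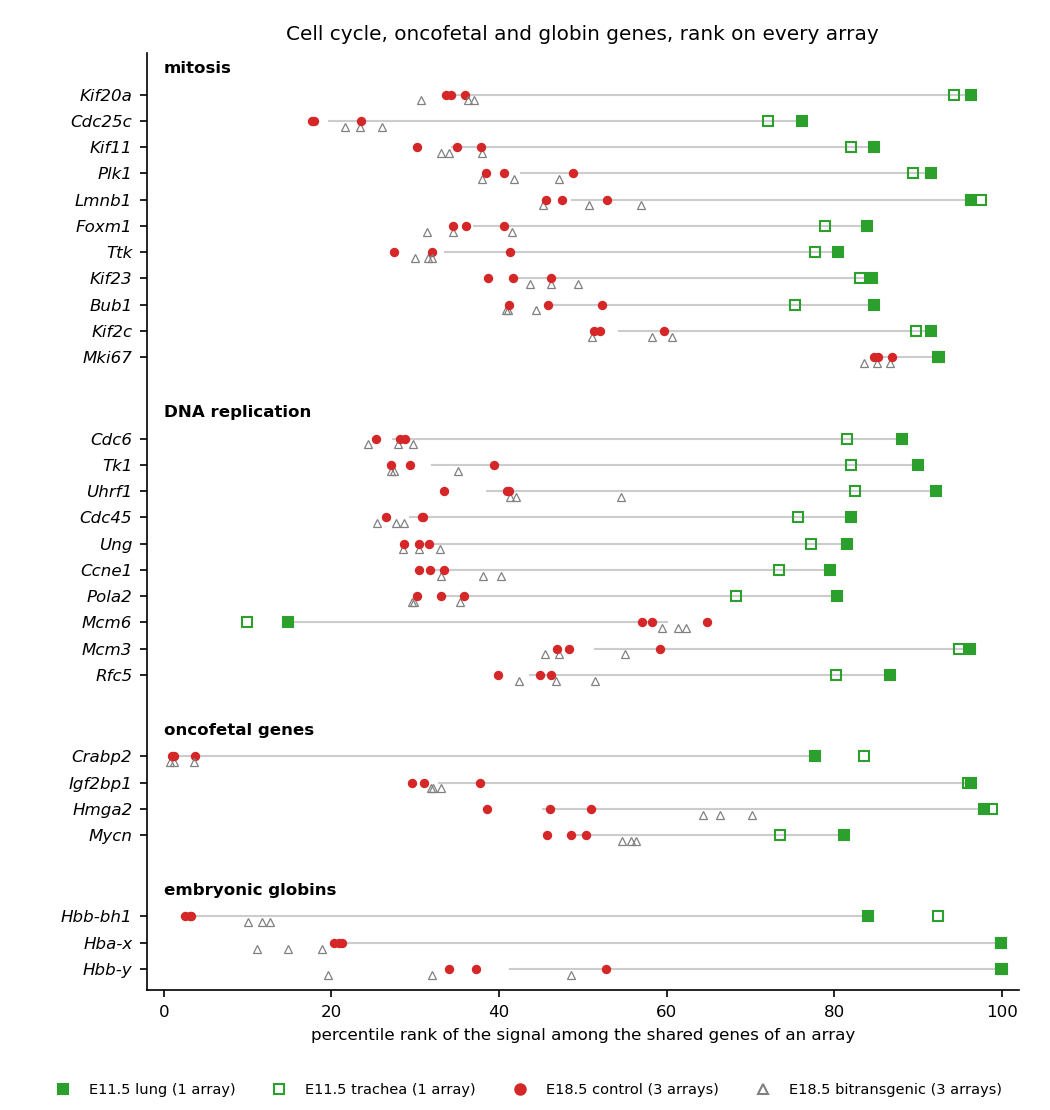
Rank on every array (horizontal, 0 to 100) of the mitosis and DNA replication genes with the largest counted shifts, of Mki67, and of the counted oncofetal and embryonic globin genes; symbols as in the plot of epithelial ranks. Both E11.5 arrays sit at the right and the E18.5 arrays to their left in all but Mcm6.

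Genes linked to leaving the cell cycle were mostly at higher ranks in the controls, 9 of 21 (42.9%) being higher and 1 lower. Cdkn2b, an inhibitor of the G1 kinases, ranked 8.58 in the E11.5 lung and 68.3, 74.4 and 72.3 in the controls. Cdkn1b, the inhibitor p27, ranked 18.9 against 82.7, 81.5 and 76.3. Rbl2, Pmp22, Txnip, Rb1, Ccng1, Gas6 and Klf9 were also higher, and Gadd45a was lower. Of the 9, only Cdkn2b, Rbl2, Pmp22 and Txnip kept 1 sign over all pairs of probe sets. The list's median shift ran from 2.79, with each gene's dimmest probe set, to 30.83, with ranks over all genes.

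Genes known from embryo and tumour, the oncofetal genes, were lower in 4 of 9 cases and higher in 0. Hmga2, a chromatin protein of embryonic growth (chromosome 10, 120361268 to 120476469), ranked 97.9 in the E11.5 lung and 51.0, 46.0 and 38.6 in the controls. The bitransgenic E18.5 lungs, on the same array type as the controls, ranked 70.2, 64.4 and 66.4, between the E11.5 lung and the controls. Igf2bp1, an RNA-binding protein of fetal tissue, ranked 96.4 against 29.7, 31.0 and 37.7, and Crabp2, which carries retinoic acid, 77.7 against 3.71, 0.93 and 1.18. Mycn, named above, was the other member. Of 20 imprinted growth genes 1, Slc38a4 (5.0%), was lower and 0 were higher. Their median rank at E11.5 was 92.84, which leaves most of them no room to be counted as higher. With each gene's dimmest probe set 6 were lower and 2 higher. Igf2 ranked 99.6 at E11.5 and had a mean of 95.2 ± 1.22 (SD, n = 3) in the controls, and Dlk1 97.1 against 99.2 ± 0.54 (SD, n = 3). Both had pairs of both signs, from -77.4 to 88.6 for Igf2 and from -61.3 to 2.04 for Dlk1. Of 26 Hox genes, which set position along the body axis, 5 were lower (Hoxa4, Hoxb6, Hoxc5, Hoxb5 and Hoxa2) and 1, Hoxb3, higher, with a pair range of -0.42 to 35.5. Hoxb5, which patterns lung mesenchyme, ranked 83.4 against 51.9, 47.5 and 50.7.

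The embryonic globins had the lowest median shift of the 47 lists, -79.09 points, and all 3 were lower. Hbb-y, the embryonic beta-like chain (chromosome 7, 103851754 to 103853207), ranked 99.97 in the E11.5 lung and 37.2, 52.8 and 34.0 in the controls. Hba-x, the embryonic alpha-like chain, ranked 99.94 against 20.4, 21.2 and 20.9, and Hbb-bh1 ranked 84.0 against 3.18, 3.26 and 2.52. No control came near the E11.5 lung in these genes, and control 2 was the highest for Hbb-y. The E11.5 trachea ranked 99.98, 99.97 and 92.5 for them. Of 2 adult globins 1, Hba-a1, was counted as lower, but its probe sets differ. Hba-a1 went from 99.96 to a mean of 4.37 on the probe sets that name it alone. Probe sets that name both adult alpha-globin genes had 97.5 in the E11.5 lung and 99.89 or more in every control. Those that name 4 adult beta-globin genes ranked 99.2 and 0.42 in the E11.5 lung, and 99.84, 99.86 and 99.91 in controls 1, 2 and 3. Hbb-b2, the other adult globin compared, shifted by -28.87 points and was not counted. Of 16 other erythroid genes 3 were lower (Tspo2, Ank1 and Tfrc) and 1, Fech, higher. Of these only Tspo2 kept 1 sign over all probe set pairs, and Fech ran from -15.6 to 72.7. Alas2, the first enzyme of haem synthesis in red cells, ranked 80.8 against 85.5, 88.3 and 92.2.

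Endothelial genes were higher in 15 of 35 cases (42.9%) and lower in 0, with a median shift of 16.5 points. Aplnr, the apelin receptor, ranked 14.3 in the E11.5 lung and 98.98, 98.34 and 98.69 in the controls. Cd36, a fatty acid transporter of capillaries, ranked 10.1 against 89.4, 90.9 and 90.1. Ptprb, Ednrb, Lyve1, Icam1, Ace, Vwf, Icam2, Nos3, Gja4, Thbd, Sox17, Kdr and Vcam1 made up the rest. Of the 15, Vcam1 alone had probe set pairs of both signs (-18.8 to 48.2). Kdr, Icam2, Nos3, Gja4 and Icam1 have a single probe set on each array, so no other pair could differ. Vwf and Thbd have further probe sets on the older array only, where a dimmer one can only raise the shift. Pecam1 and Cdh5, common markers of endothelium, were not counted. Pecam1 ranked 50.2 against 60.7, 67.3 and 67.7, and Cdh5, which encodes VE-cadherin, ranked 81.4 against 83.0, 88.2 and 78.7, which overlap it, with a pair range of -51.5 to 1.94. Kdr, a receptor for VEGF, ranked 56.6 against 85.9, 85.9 and 90.7. Of 9 pericyte genes 3 were higher (Abcc9, Kcnj8 and Pdgfrb) and 0 lower.

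Leukocyte genes shifted upward in part. Of 31 macrophage and leukocyte genes 6 (19.4%) were higher and 0 lower, among them Csf1r, the receptor that macrophages need, at 47.0 against 95.7, 94.7 and 92.2. Ctss, Tyrobp, Cybb, Ptprc and Mrc1 were the others, Cybb with a pair range of -1.97 to 45.2. Ptprc, the pan-leukocyte antigen CD45, ranked 13.6 against 59.6, 54.6 and 50.6 and had pairs of both signs, from -11.0 to 54.6. Since macrophages also carry Lyz2 and Lgals3, their part in those shifts was not tested. Of 27 antigen presentation and interferon genes 3 (11.1%) were higher (Ifitm1, Xdh and Ifitm2) and 0 lower. Of 13 neutrophil genes 1 (7.69%) was higher (Chil3) and 1 lower (Csf3r, with pairs of both signs). Of 9 mast cell genes 1 (11.1%), Hdc, was higher. The shares of these 3 lists that were higher lay near the 10.4% of all shared genes.

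Of 26 elastic fibre and matrix assembly genes 10 (38.5%) were higher, 2 lower and 14 neither, with a median shift of 19.95 points. Of the 10, 6 kept 1 sign over all probe set pairs, and 4 passed 25 points in every pair. Eln, which encodes tropoelastin, ranked 57.2 in the E11.5 lung and 99.6, 99.5 and 99.6 in the controls. Mfap4 and Ltbp2, proteins of elastic microfibrils, ranked 44.7 and 17.4 against means of 98.96 ± 0.73 and 83.8 ± 4.01 (SD, n = 3). Mmp2, a matrix protease, shifted by 75.14 points. Vcan, a large proteoglycan of embryonic matrix, was lower, at 96.9 against 49.0, 45.2 and 53.6. Of 29 collagens 7 were higher, namely Col4a3, Col4a4 and Col4a5 of basement membrane, Col6a1, Col6a2 and Col6a3, and Col14a1, the last with pairs of both signs. Col9a1 and Col9a2, of cartilage, were lower. Of 21 genes of lipid-storing and alveolar fibroblasts 9 (42.9%) were higher and 1 lower. G0s2, an inhibitor of lipid breakdown, ranked 34.8 against 86.9, 88.3 and 86.1, and Inmt, a methyltransferase, 8.42 against 80.4, 82.7 and 69.4. Of 19 smooth muscle genes 5 were higher and 0 lower, and of 21 basement membrane genes 4 (Itga6, Nid1, Lamb3 and, with pairs of both signs, Lama3) were higher and 0 lower. Of 8 leucine-rich proteoglycans 1, Ogn, was higher.

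Genes that pattern the branching bud split. Of 30 branching signal genes 5 were higher and 4 lower, with a median of -0.61 that became 12.55 with ranks over all genes and -13.75 with each gene's dimmest probe set. Sfrp2 and Sfrp1, secreted Wnt inhibitors, ranked 95.1 and 61.4 in the E11.5 lung against means of 43.5 and 28.5 in the controls. Lef1, a Wnt effector, and Gli1, the readout of hedgehog signalling, shifted by -50.14 and -28.08. Fgfr4, Fgfr3, Tgfb1, Bmp5 and Bmpr1a were higher, and of these only Tgfb1 kept 1 sign over all probe set pairs. Of 29 lung bud mesenchyme transcription factors 1, Prrx2, was lower and 0 were higher.

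Markers of neighbouring organs were counted in the same way. Such counts do not measure the purity of a sample. Tissue present alike at both ages, or signal at background, would also give 0 counted. Of 25 neuronal and neuroendocrine genes 5 were lower and 0 higher. Tubb3, a neuronal tubulin, had the largest shift of these, from 94.2 to 0.14, 3.19 and 0.99, with a pair range of -92.8 to -21.6. Dcx, Uchl1, Crmp1 and Ncam1 were the others, and Ncam1 had pairs of both signs. Of 19 cardiac muscle genes 3 were higher and 1, Gata4, lower. Myh6, the atrial myosin heavy chain, ranked 5.2 in the E11.5 lung and 95.5, 96.1 and 78.6 in the controls. The median rank of the cardiac list was 25.6 in the E11.5 lung and 41.8, 45.1 and 34.0 in the controls, lowest in control 3, as for Myh6. Its part in other shifts was not tested. Liver (21 genes) and cartilage (10 genes) had 0 members counted in either direction, and skeletal muscle had 1 of 15 lower. Of 6 mesothelial genes 2, Msln and Igfbp6, were higher and 0 lower, but 4 shifts were negative and the median was -12.8 points. Upk3b, Wt1, Rspo1 and Bnc1 shifted by -13.28, -12.32, -14.36 and -25.06 points without being counted. Msln, mesothelin, ranked 8.6 against 90.3, 92.2 and 96.2.

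Of 45 oxidative phosphorylation genes 11 (24.4%) were higher and 1 lower, with a median shift of -0.83. With each gene's dimmest probe set 11 were higher and 10 lower, and 6 were higher when every pair had to pass. The median rank at E11.5 was 92.68 for these genes and 99.5 for the ribosomal proteins, so their median shifts were bounded by the top of the scale. Cox5a, a cytochrome oxidase subunit, ranked 26.5 against 98.9, 98.6 and 97.5. Of 28 ribosomal protein genes 6 were higher and 1 lower with a median of -0.18, and of 24 glycolysis and hypoxia genes 3 were higher and 0 lower. Of 39 genes of RNA processing and ribosome biogenesis 8 (20.5%) were lower and 2 higher. Nop58, a core protein of small nucleolar particles, ranked 82.8 against 33.5, 30.0 and 31.8. Of 15 cholesterol synthesis genes 4 were lower and 1 higher, which became 1 lower and 2 higher with ranks over all genes. Idi1 and Sqle shifted by -42.05 and -34.97 points and Insig1, which holds back the pathway, by 67.4. Of 33 antioxidant and xenobiotic genes 8 were higher and 4 lower. Fmo1, a drug-metabolising oxidase, ranked 3.09 against 75.8, 80.3 and 72.7, and Hmox1, haem oxygenase, 82.4 against 27.1, 24.7 and 27.9. Of 12 retinoid pathway genes 2 were higher (Aldh1a1 and Rarg) and 1, Crabp2, lower.

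**Figure D4:**
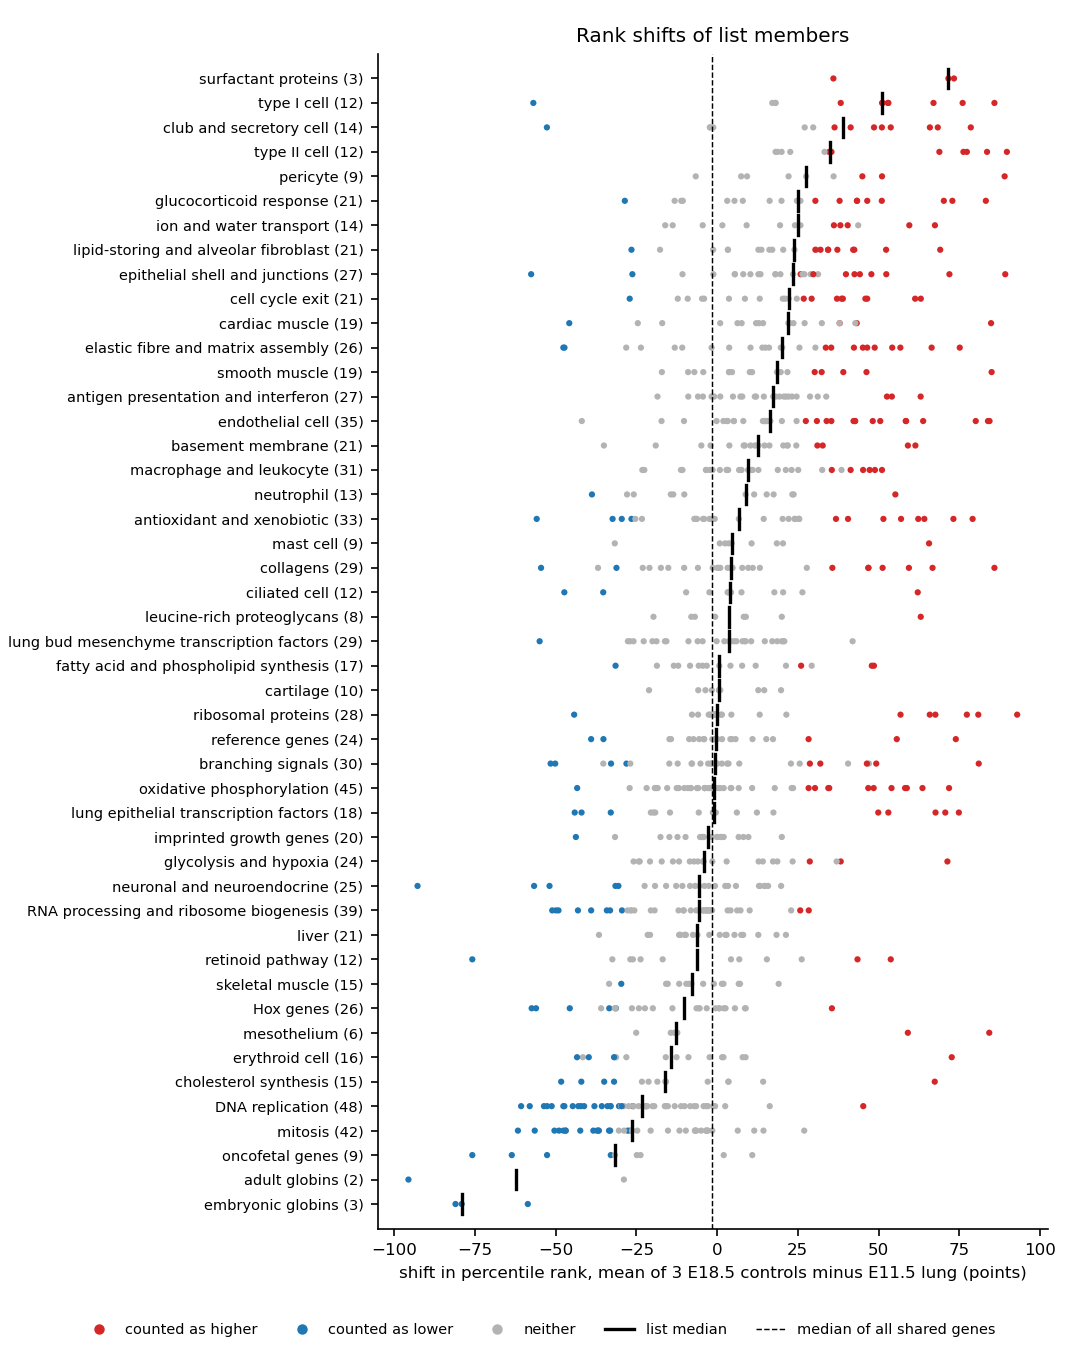
Shift in percentile rank from the E11.5 lung to the mean of the 3 controls (horizontal, points) for each member of the 47 lists (rows, number of shared members in brackets). Red and blue points are genes counted as higher and lower, black bars list medians, and the dashed line the median of all shared genes at -1.56. The surfactant, type I and club cell lists stand at the top and the globin, oncofetal, mitosis and DNA replication lists at the bottom. The adult globin list leaves out probe sets with several symbols, which ranked 99.84 or more in every control.

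The largest shifts of all shared genes were named by rule, 15 in each direction among counted genes whose probe set pairs all had 1 sign. Upward they were Scn7a, Rps20, Napsa, Lgals3, Abcc9, S100a16, Gde1, Maf, Eif5a, Dnpep, Col4a4, Flna, Myh6, Aplnr and Limd2, with shifts from 84.35 to 93.6 points. Downward they were Hba-a1, Tubb3, Plk3, Hbb-bh1, Igsf10, Hba-x, Dhrsx, Crabp2, Sprr2i, Gpr50, Hypk, Mt3, Krtap5-1, Olfr71 and Gpr27, from -66.68 to -95.59. Rps20, a ribosomal protein gene that every cell uses, shifted by 92.92 points with its brightest probe sets and by 11.48 with another pair. For Hba-a1, the probe sets that name both adult alpha-globin genes stayed at high ranks at both ages, as given above.

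Agreement between probe sets differed by direction. Of 674 higher genes with more than 1 probe set on either array, 311 (46.1%) had the same sign over every pair, and of 467 lower genes 332 (71.1%). A dimmer probe set on the newer array can turn a higher gene but hardly a lower one. Several probe sets were more common on the newer array (4839 shared genes) than on the older (2065). The shares and counts of this paragraph therefore do not compare the directions on equal terms. When every pair was required to pass 25 points, 285 genes were higher and 514 lower. By that count 5 of 12 type II, 6 of 12 type I, 7 of 14 club and 11 of 35 endothelial genes were higher. On the other side 13 of 42 mitosis, 13 of 48 DNA replication and 3 of 9 oncofetal genes were lower.

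**Figure D5:**
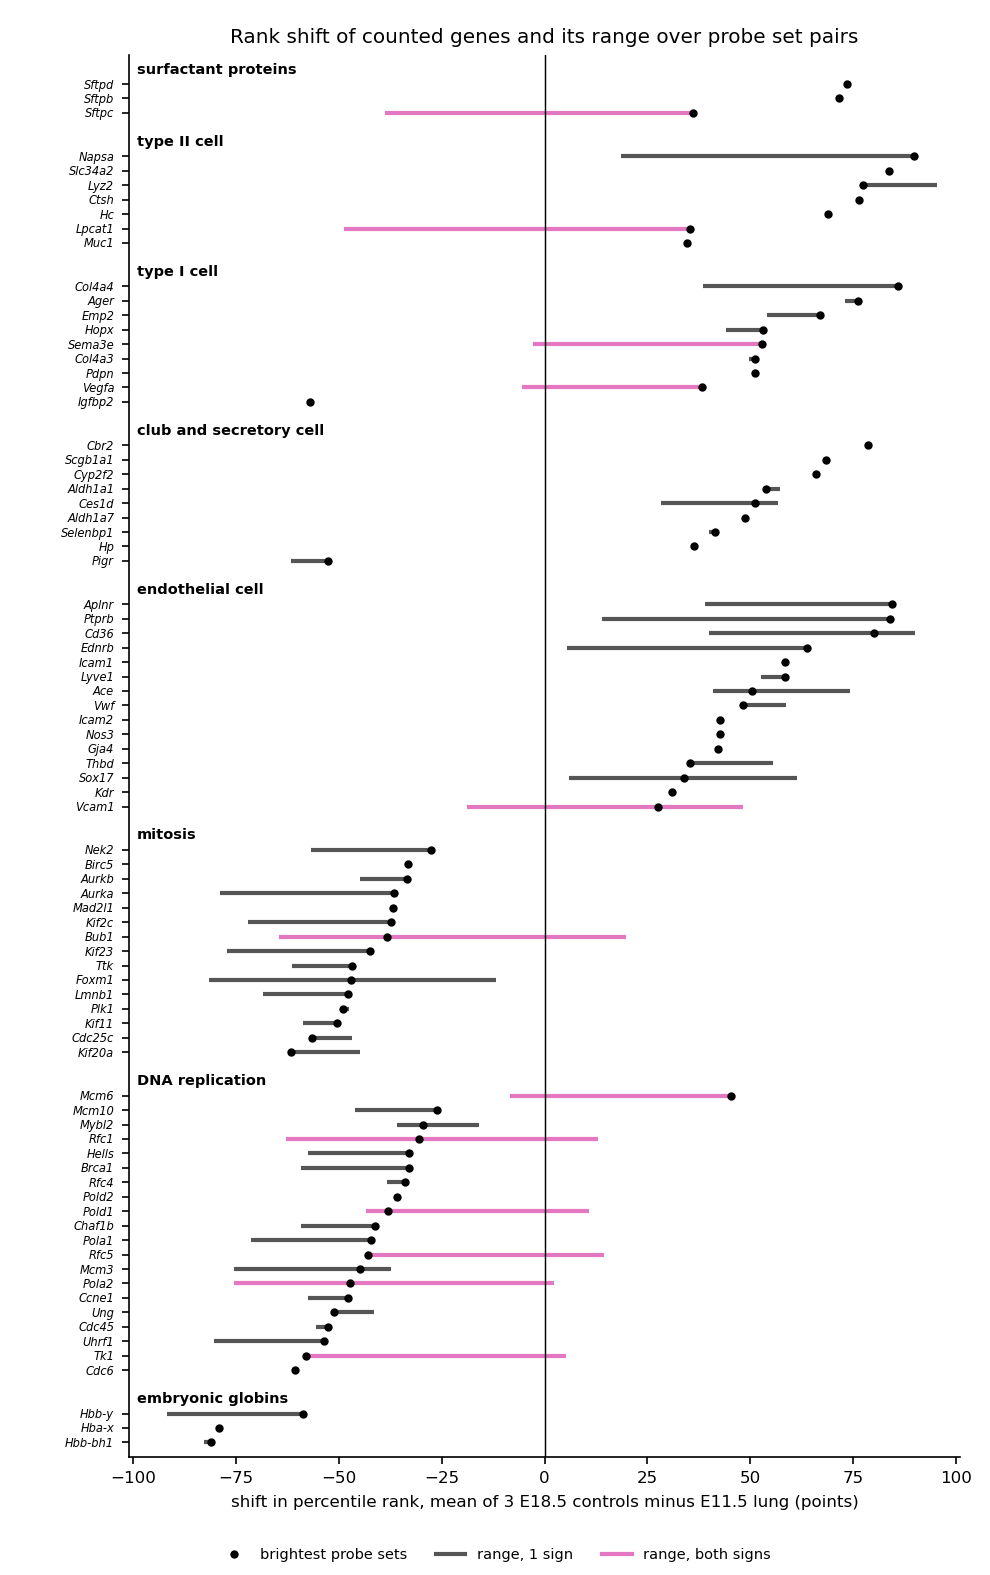
Shift in percentile rank (horizontal, points) of every counted gene of 8 lists. Dots use the brightest probe set of each array type, and bars run from the lowest to the highest shift over all pairs of the gene's probe sets, in pink where they cross 0. Bars of mitosis genes cross 0 for Bub1 alone, and those of Sftpc and Lpcat1 reach -38.75 and -48.63.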

How the data were processed

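RNA of the 8 samples was labelled with biotin and hybridised to 1-colour Affymetrix arrays. The deposited values are a linear signal intensity per probe set, made by the authors with MAS5, per the submitters' processing notes, with no version given; the build used for probe design is not given in the sources used here. No detection calls were used here. The array annotation gave gene symbols, and 66 control probe sets of the older and 64 of the newer array were dropped. On the older array 10833 of 12422 probe sets had 1 symbol, 396 several and 1193 none, and on the newer array 34945 of 45037 had 1 symbol, 932 several and 9160 none. Of 8108 shared genes 8100 were named through their Entrez ID in RefSeq, whose coordinates are on GRCm38.p6.

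Ranks were 100 × (rank - 0.5) / n on each array, so the arrays' scale and any monotone normalization have no effect. Means ± SD cover 3 controls, numbered in the order of deposit; the number of arrays limits the precision. No test was made. Ranks and the counting rule were tested on simulated data, and the range over probe set pairs was not. Python 3.11.15, pandas 2.3.3, numpy 2.4.6 and matplotlib 3.10.9 were used.

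The genes named are 4 markers (Sftpc, Sftpd, Lyz2 and Mki67), the 15 largest shifts each way among counted genes whose probe set pairs had 1 sign, without clone names, and members of 47 gene lists. The comparison, members and lists were chosen with earlier results of these data known. Alternatives covered the threshold, the rank minimum, the choice of probe set, the set of genes ranked, Entrez matching, the mean control rank and each control left out. The restrictions to genes with 1 probe set per array type and to probe sets without a cross-hybridisation suffix were chosen after seeing the data.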

Additional observations from a re-analysis of the deposited data

How the results depend on the processing

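The 845 higher and 726 lower genes depended most on the size of the shift asked for, on the probe set and on the genes ranked. A shift of 15 points gave 1278 lower genes, and 40 points gave 449 higher and 244 lower. A higher rank of at least 75 gave 547 and 394. Each gene's dimmest probe set gave 1164 higher genes, 411 of them among the 845, and 1138 lower, 259 of them among the 726. Asking every pair of probe sets to pass gave 285 higher genes. Ranks over all genes of each array type gave 1588 higher and 235 lower. Genes with 1 probe set on each type, 2659 in all and ranked only among themselves, gave 232 higher and 185 lower. Of these, 166 and 134 were among the 845 and the 726, so ranking anew changed which genes were counted. Without one control the counts ran from 853 to 941 higher and from 749 to 850 lower. With the dimmest probe set the shift of Sftpc turned to -19.4 points. The other settings kept both counts within 1.5 times, though not always the same genes: the mean over probe sets gave 959 and 890, with 546 of the 845 and 387 of the 726 among them. The median shift kept its sign under the 14 settings tried for 30 of 47 lists, among them the surfactant protein, type I, type II, club, endothelial, mitosis, DNA replication, oncofetal and embryonic globin lists. For the other 17, such as branching signals and lung epithelial transcription factors, the sign depended on the setting. Settings that change only the counting rule, such as the threshold or the rank minimum, leave a median as it is. They could not turn a sign, so only the settings that change ranks, probe sets, genes or controls bear on it. No paired analysis was possible because the E11.5 group is 1 array. Age, array type and its probe sets cannot be told apart, the single E11.5 array gives no spread at that age, and no detection call marks which low ranks are above background.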
